A study of Homo sapiens with 12 samples.

Results

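The AP-1 factors FOS, FOSB, FOSL1, FOSL2, JUN, JUNB and JUND and the zinc finger factor EGR1 were followed as a family of 8 genes in 2 prostate cancer cell lines, each as its parental line and as a docetaxel-resistant subline. The members were the genes whose symbol in the deposited tables equals one of these names, 8 of the 38611 genes listed, and all 8 passed the filter on low counts. Poly(A) RNA of DU145 and PC3 cells was sequenced, with 3 libraries in each of 4 groups: DU145 before (parental) and after selection in docetaxel (resistant), and PC3 in the same 2 states. DU145 was derived from a brain metastasis and PC3 from a bone metastasis of prostate carcinoma. Docetaxel is a taxane that stabilises microtubules. The labels give a starting exposure of 10 nm/ml and an IC50 of 1800 nm/ml reached for the DU145 subline, and 0.5 and 15 nm/ml for the PC3 subline. That unit is printed as the labels spell it. The labels do not say whether a subline is 1 clone, whether docetaxel was present at harvest, or whether the 3 libraries of a group came from separate cultures. The p-values therefore measure the spread between libraries, which may be technical.

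AP-1 is a dimer of basic leucine zipper proteins. A Jun protein pairs with itself, with a Fos protein or with a related ATF or MAF protein, and the dimer binds the sequence TGACTCA or the cyclic AMP response element. FOS, FOSB, JUNB and EGR1 are classical immediate-early genes, switched on within minutes by growth factors, serum or stress through MAP kinases and serum response factor, and their transcripts are short-lived. FOSL1 and FOSL2 lack the strong transactivation domain of FOS, and FOSL1 is a typical Fos protein of invasive epithelial tumour lines. EGR1 binds GC-rich promoter sites, is held in check by the corepressors NAB1 and NAB2, and is often high in prostate tumours.

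Total counts ran from 62513103 to 72530254 per library, with 25695 to 26401 genes counted at least once. Both lines expressed the epithelial list fixed for this check (KRT8, KRT18, KRT19, EPCAM, CDH1 and CTNNA1), whose summed level was 1404 to 1461 CPM in parental and 1902 to 1961 CPM in resistant DU145. The share of counts in mitochondrial genes was 3.98% to 4.30% in parental and 7.04% to 7.14% in resistant DU145, and 5.68% to 6.04% and 3.46% to 3.55% in PC3. The epithelial sum in PC3 was 1033 to 1047 and 553.5 to 587.3 CPM. The 5 leukocyte genes summed to at most 1.02 CPM in any library, with PTPRC at 0 in every DU145 library. The 6 fibroblast genes (COL1A1, COL1A2, COL3A1, DCN, LUM and PDGFRB) summed to 114.8 to 123.7 CPM in parental PC3 and 11.99 to 19.52 CPM in resistant PC3. In DU145 they summed to 23.33 to 40.56 and 5.54 to 11.31 CPM. By the test described below, 1 of the 6 differed between the parental lines. In each line 2 of the 6 were lower in resistant than in parental cells. The 5 endothelial genes (PECAM1, VWF, CDH5, KDR and TEK) summed to 177 to 232.5 and 53.87 to 77.28 CPM in parental and resistant PC3, and to under 1 CPM in DU145. VWF was at 0 in parental PC3. Of the 4 endothelial genes tested, 2 rose, 1 fell and 1 did not pass in PC3, although the sum fell. The part of these shifts in the results was not tested. CPM here means counts relative to the library total, scaled by TMM (trimmed mean of M values).

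In DU145, 4 of the 8 genes were higher in the resistant subline (FOSL2, JUN, JUNB and EGR1), JUND was lower, and FOS, FOSB and FOSL1 did not pass the test. Of all 24128 genes tested, 39.6% were called in this comparison at an adjusted p under 0.05 by edgeR's quasi-likelihood test, 18.9% higher and 20.7% lower, so that calls were common throughout. In PC3, FOSL1 and JUN were higher, FOSL2, JUNB and JUND were lower, and FOS, FOSB and EGR1 did not pass, against a background of 44% of genes called, 22.4% higher and 21.6% lower. The change differed between the lines for 5 genes, FOSL1, FOSL2, JUN, JUNB and JUND, where 42.1% of all genes were called. FOSL2 and JUNB moved in opposite directions in the lines, while JUN was higher and JUND lower in both sublines by unequal amounts. The median change over the 8 genes was 0.21 on the log2 scale in both lines, against 0 over all genes.

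**Figure D1:**
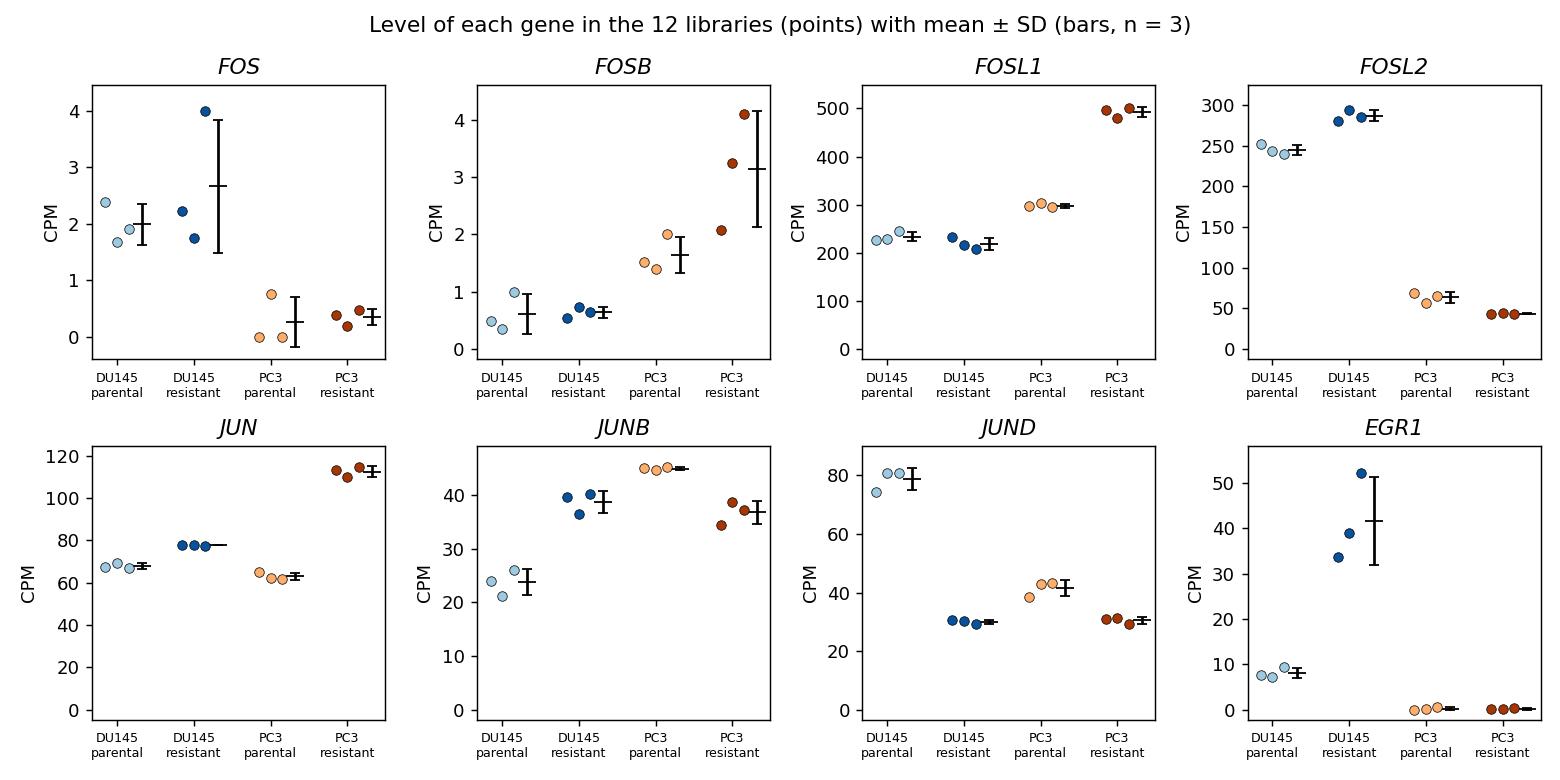
Level of each of the 8 genes in CPM (vertical axis, linear, own scale per gene) in the 12 libraries, with the mean and SD of each group (bars, n = 3). EGR1 rose in resistant DU145 and stayed under 1 CPM in every PC3 library, JUND fell to about the same level in both sublines, and the FOS and FOSB levels did not exceed 5 CPM.

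**Figure D2:**
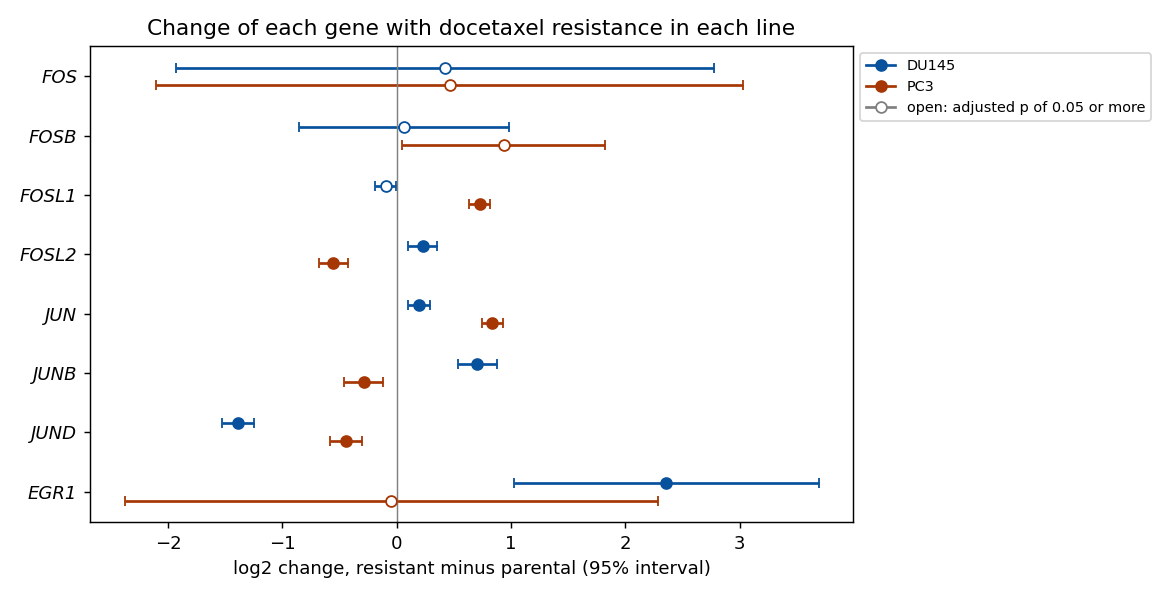
Fitted log2 change from parental to resistant (points, with 95% intervals from edgeR as lines, filled where called) for each gene in DU145 and in PC3. FOSL2 and JUNB lie on opposite sides of 0 in the lines, and the intervals of FOS and of EGR1 in PC3 are several log2 units wide.

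Among the Fos genes, FOSL1 (chromosome 11, 65892049 to 65900419, minus strand, GRCh38) was the highest per transcript length, in FPKM. By counts, which longer transcripts raise, FOSL2 held the larger mean share of the family in DU145 (50.9% against 48.6% in parental and 56.4% against 43.0% in resistant cells). In the third parental DU145 library FOSL1 held the larger share (50.2% against 49.2%). FOSL1 reached 127 ± 6.6 FPKM in parental DU145 (SD, n = 3, for every group mean here) and 157 ± 2.38 FPKM in parental PC3. FOS reached 0.641 ± 0.11 FPKM in parental DU145, so that FOSL1 stood 198-fold above FOS there.

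FOSL1 measured 227, 229 and 244.4 CPM in the 3 parental DU145 libraries and 232, 216 and 208 CPM in the resistant ones. The groups overlapped. The change was -0.10 ± 0.04 on the log2 scale (SE, adjusted p = 0.0985), with a 95% interval of -0.19 to -0.003. In PC3 it measured 297, 303 and 295 CPM in parental and 496, 481 and 500 CPM in resistant cells, every resistant library far above every parental one. It rose 1.65-fold (0.72 ± 0.04 on the log2 scale, adjusted p = 1.67e-09), and the change exceeded that in DU145 by 0.82 ± 0.06 (adjusted p = 2.66e-08). The DU145 difference was called under other settings, with adjusted p = 0.0399 when only library totals were used for scaling and 0.000793 on log2(TPM + 1). The adjusted p was 0.0432 on log2(FPKM + 1) and 0.042 on log2(FPKM + 0.1). Leaving out the first resistant DU145 library also gave a call (-0.14, adjusted p = 0.0355). On log2(TPM + 1), also used for FOSL2 and JUN below, the median change over all genes in DU145 was -0.07, against 0 in the fit reported.

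FOSL2 (chromosome 2, 28392448 to 28417312, plus strand), the other Fos-related factor, was lower in PC3 than in DU145 in every library. A stretch around its start site is shown because it holds the one copy of TGACTCA, the AP-1 site, in the members' promoter windows. In the RefSeq table for GRCh38.p14, which has 300-base windows for 7 of the 8 genes, chr2:28392852-28392878 on the plus strand begins at position -6 from the start site, and the AP-1 site, in capitals, at position 5.
FOSL2: gccattgtagTGACTCAtctcgggcag
TGACTCA was searched on both strands in 35116 windows and was in 4.95% of them. The file's gene start lies upstream of this window, so it falls inside the gene as annotated there. FOSL2 measured 252, 243 and 240 CPM in parental DU145, and 280.2, 294 and 286 CPM in the resistant libraries, all of them higher. The rise was 0.23 ± 0.06 on the log2 scale (adjusted p = 0.00514). In PC3 the parental libraries had 69.4, 56.5 and 65.6 CPM and the resistant ones 42.9, 44.3 and 43.0 CPM, with no overlap. The fall was 0.56 on the log2 scale (SE 0.06, adjusted p = 1.13e-06), and the changes in the lines differed by -0.78 ± 0.08 (adjusted p = 1.18e-06). The DU145 call was lost on log2(TPM + 1), where the change was 0.08 and adjusted p = 0.382. In the files, 2 genes overlap FOSL2 by position, FLJ31356 on the other strand and AC104695 on the same strand, with at most 65 and 38 counts in any library.

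FOS (chromosome 14, 75278826 to 75282230, plus strand), the founding member, was near the detection limit in PC3. The parental PC3 libraries held 0, 49 and 0 counts and the resistant ones 26, 12 and 33. In DU145 it had 2.38, 1.68 and 1.91 CPM in parental and 2.23, 1.76 and 3.999 CPM in resistant libraries. The third resistant DU145 library was the highest, and the groups overlapped in both lines. The change was 0.42 ± 1.07 on the log2 scale in DU145 (adjusted p = 0.83) and 0.46 ± 1.17 in PC3 (adjusted p = 0.808), with 95% intervals of -1.93 to 2.77 and -2.10 to 3.03. In this fit the spread of a gene is shared by the 4 groups. The SE and interval in DU145 therefore also take in the spread of the PC3 libraries. Without the second parental PC3 library neither remaining parental library had a count of FOS, and the PC3 change was called (7.54, adjusted p = 7.49e-05). That fitted value rests on a group at 0 and is no size of effect.

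FOSB (chromosome 19, 45467995 to 45475179, plus strand) also stayed low. The parental DU145 libraries had 0.491, 0.345 and 0.9998 CPM and the resistant ones 0.542, 0.724 and 0.651 CPM, which overlapped, with a change of 0.06 ± 0.43 (adjusted p = 0.956). In PC3 the parental libraries had 1.52, 1.40 and 2.00 CPM, below all 3 resistant libraries with 2.08, 3.25 and 4.09 CPM. The change was 0.94 ± 0.42 (adjusted p = 0.084, 95% interval 0.05 to 1.82), and it was called when only the 2 PC3 groups were fitted (adjusted p = 0.0265). FOSB lies wholly within ERCC1, a DNA repair gene on the opposite strand in the files' coordinates. ERCC1 itself fell by 0.60 on the log2 scale in PC3 (adjusted p = 5.49e-06), from a mean of 78.1 to 51.5 CPM. Without knowing whether the counting used strand, reads of the pair cannot be told apart.

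Of the Jun genes, JUND (chromosome 19, 18279694 to 18281622, minus strand), which is usually expressed steadily and can restrain growth, was lower in both sublines. The 250 bases upstream of its start are shown because this is the one member window holding the full cyclic AMP response element TGACGTCA (capitals, first base at position -200), present in 1.85% of windows. The region is chr19:18281623-18281872 on the minus strand (RefSeq, GRCh38.p14).
JUND: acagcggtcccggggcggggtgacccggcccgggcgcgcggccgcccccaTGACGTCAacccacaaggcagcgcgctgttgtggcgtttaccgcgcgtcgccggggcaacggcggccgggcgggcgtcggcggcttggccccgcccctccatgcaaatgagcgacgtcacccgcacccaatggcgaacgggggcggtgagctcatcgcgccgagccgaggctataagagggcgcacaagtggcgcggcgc
The shorter TGACG, which overlaps that element and was searched on both strands, was in all 7 member windows and in 24.6% of windows. JUND had 74.4, 80.7 and 81.0 CPM in parental and 30.7, 30.1 and 29.1 CPM in resistant DU145. The groups were far apart. The fall was 1.39 on the log2 scale (SE 0.07, 2.62-fold, adjusted p = 1.38e-10). In PC3 the level went from 38.5, 42.9 and 43.3 CPM to 31.1, 31.2 and 29.3 CPM, a change of -0.44 ± 0.07 (adjusted p = 3.39e-05), also without overlap. The change was smaller in PC3 by 0.95 ± 0.09 (adjusted p = 4.53e-07), and the sublines ended within 0.03 ± 0.07 of each other on the log2 scale (adjusted p = 0.773, 95% interval -0.11 to 0.17).

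JUN (chromosome 1, 58780791 to 58784047, minus strand) encodes the Jun protein with the strongest transactivation, and its promoter site TGACATCA is a variant AP-1 element known for autoregulation. The motif was found in 2.61% of windows, beginning at position -67 from the RefSeq start, and is shown in capitals with 10 bases on each side (chr1:58784097-58784124, minus strand, GRCh38.p14).
JUN: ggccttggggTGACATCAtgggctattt
JUN had 67.3, 69.5 and 66.8 CPM in parental and 77.9, 77.9 and 77.6 CPM in resistant DU145, a small separation with a change of 0.20 ± 0.04 (adjusted p = 0.00194). In PC3 it went from 64.9, 62.4 and 61.6 CPM to 113, 110 and 115 CPM, a 1.79-fold rise (0.84 ± 0.04, adjusted p = 3.68e-10). The rise was larger in PC3 by 0.64 ± 0.06 (adjusted p = 4.6e-07). The DU145 call was lost on log2(TPM + 1) (0.05, adjusted p = 0.32).

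JUNB (chromosome 19, 12791486 to 12793315, plus strand), which often opposes JUN on shared targets, changed in opposite directions in the lines. It had 24.0, 21.2 and 26.0 CPM in parental and 39.6, 36.4 and 40.1 CPM in resistant DU145, so that every resistant library was higher. The rise was 0.71 ± 0.08 on the log2 scale (adjusted p = 3.19e-06). In PC3 it fell by 0.29 (SE 0.08, adjusted p = 0.00782), from 45.0, 44.6 and 45.1 CPM to 34.4, 38.6 and 37.2 CPM. The difference between the lines was -0.99 ± 0.11 (adjusted p = 2.78e-06). By GENCODE 29, though not by the files' coordinates, JUNB lies within HOOK2 on the other strand, which fell in both lines, by 0.37 on the log2 scale in DU145 and by 0.88 in PC3.

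Within the Jun family the mix changed in both lines, measured as each gene's share of the summed FPKM. JUND went from 56.3% to 26.7% in DU145 and from 33.9% to 23.6% in PC3. JUN went from 25.9% to 36.9% and from 27.4% to 46.4%. JUNB went from 17.9% to 36.4% in DU145, and its share in PC3 went from 38.7% to 30.0%. The summed Jun FPKM was 74.4 ± 3.13 in parental and 58.7 ± 0.812 in resistant DU145, and 63.1 ± 0.617 and 64.8 ± 1.16 in PC3. Within the Fos family FOSL1 went from 78.0% to 73.8% in DU145 and from 94.4% to 97.5% in PC3, and FOSL2 from 21.6% to 25.6% and from 5.33% to 2.27%. FOS and FOSB together held under 1% in every group. The groups of 3 did not overlap for any of these shares of FOSL1, FOSL2, JUN, JUNB and JUND, and the exact two-sided permutation p was 0.1, the smallest that 3 against 3 libraries can give.

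**Figure D3:**
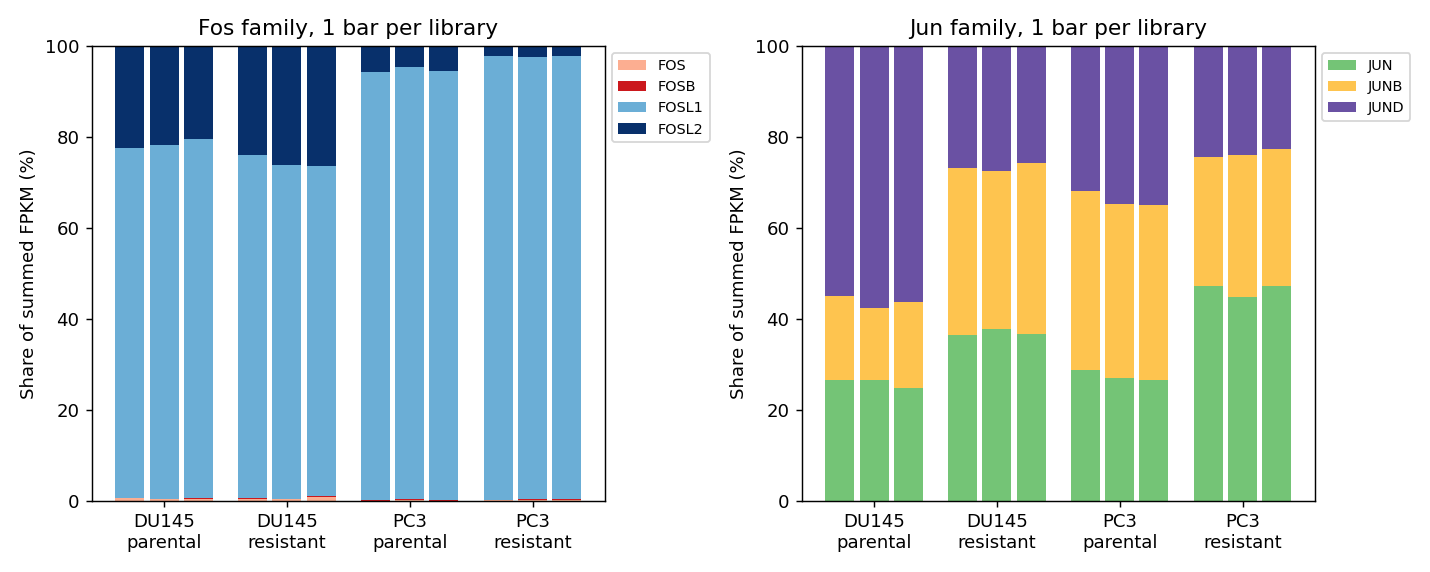
Share of each gene in the summed FPKM of the Fos family and of the Jun family (percent, vertical axis), 1 stacked bar per library and 3 bars per group. JUND holds a mean of 56.3% of the Jun sum in parental and 26.7% in resistant DU145, and FOSL1 holds over 70% of the Fos sum in every group.

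EGR1 (chromosome 5, 138465479 to 138469303, plus strand) showed the largest rise of the 8 genes. Its promoter is shown because it is the one member window with serum response elements, here in capitals: 2 copies of the CArG box (CC, then any 6 of A or T, then GG), beginning at positions -105 and -83. The windows reach 250 bases upstream and FOSL1 has none, so elements of other members further upstream were not searched. The box was in 1.29% of the windows, and the 250 bases upstream of the start are chr5:138465229-138465478 on the plus strand (RefSeq, GRCh38.p14).
EGR1: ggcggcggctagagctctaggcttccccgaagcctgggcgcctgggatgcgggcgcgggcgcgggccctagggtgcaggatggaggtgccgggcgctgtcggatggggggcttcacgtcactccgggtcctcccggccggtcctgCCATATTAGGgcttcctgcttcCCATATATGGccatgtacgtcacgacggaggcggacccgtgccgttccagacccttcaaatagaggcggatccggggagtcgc
The EGR sites GCGTGGGCG and GCGGGGGCG, in 0.795% and 5.07% of windows, were in no member window. EGR1 had 7.57, 7.32 and 9.46 CPM in parental and 33.6, 38.9 and 52.3 CPM in resistant DU145. Every resistant library was well above the parental ones, and the third was the highest. The rise was 5.12-fold (2.36 ± 0.59 on the log2 scale, adjusted p = 0.0102, 95% interval 1.02 to 3.69). In PC3 the counts were 0, 5 and 39 in parental and 6, 7 and 31 in resistant libraries, with no change that could be resolved (-0.05 ± 1.03, adjusted p = 0.996). The difference between the lines' changes was -2.41 ± 1.19 and did not pass (adjusted p = 0.144), so that the rise is not shown to be particular to DU145. The DU145 call was lost with DESeq2 (adjusted p = 0.0668) and without the third resistant DU145 library (2.16, adjusted p = 0.0592). Every other alternative kept it, with an adjusted p as low as 0.000374 in edgeR when 1 library was left out. The SE in DU145 also takes in the spread of the PC3 libraries, because the fitted spread is shared by the 4 groups. The difference between the lines was called in the fits on log2(FPKM + 1) (-1.96, adjusted p = 1.05e-05), log2(FPKM + 0.1) (-2.22, adjusted p = 0.00539) and log2(TPM + 1) (-2.06, adjusted p = 0.000237). It was also called without the first parental PC3 library (-3.01, adjusted p = 0.0337). Without the third parental PC3 library, which holds 39 of the parental counts, it was 0.10 (adjusted p = 1) and the PC3 change was 2.46 (adjusted p = 0.0953).

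Parental levels differed between the lines for all 8 genes, where 60.3% of all genes were called. The log2 difference, PC3 minus DU145, was -5.16 for EGR1 (adjusted p = 0.000281), -1.94 for FOSL2 and -0.92 for JUND. FOSB, FOSL1 and JUNB were higher in parental PC3, by 1.42, 0.35 and 0.92. The FOSB call was lost without the second parental DU145 library (1.11, adjusted p = 0.0518). The calls of FOS (-2.96, adjusted p = 0.0493) and JUN (-0.11, adjusted p = 0.0465) lay next to the threshold and were lost in 15 and 7 of 22 alternatives. In the resistant sublines 6 of the 8 genes were called (background 59.8%), and the exceptions were JUNB (-0.07, 95% interval -0.25 to 0.10) and JUND. JUN was higher in resistant PC3 by 0.53, FOSL1 by 1.17 and FOSB by 2.29, and the difference was -2.72 for FOSL2 and -7.56 for EGR1. FOS was called at -2.92 (adjusted p = 0.0498), a call lost in 12 of 22 alternatives. The groups of 3 did not overlap in CPM for 5 genes in DU145 (51.2% of all genes), 6 in PC3 (54.4%), all 8 between the parental lines (67.7%) and 6 between the sublines (66.5%).

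Of the AP-1 partners and related leucine zipper genes, 10 of 12 in the files were tested. For this and the following lists, 18.9% of all genes tested were called higher and 20.7% lower in DU145, and 22.4% and 21.6% in PC3. In DU145 3 rose, 5 fell and 2 did not pass (median -0.10), and in PC3 5 rose, 2 fell and 3 did not pass (median 0.31). The 7 called in PC3 were 4 without the first or the second parental or the second resistant PC3 library. ATF3, a stress-induced partner of Jun, fell by 1.68 on the log2 scale in DU145 (16.9 to 5.28 CPM) and rose by 2.74 in PC3 (1.497 to 9.99 CPM), a difference of 4.42 ± 0.22 between the lines. CREB5 rose by 2.87 in DU145 (2.52 to 18.4 CPM) and by 0.35 in PC3, the PC3 call being lost under 4 settings. MAFF rose by 1.05 in DU145 (12.3 to 25.5 CPM) and by 0.49 in PC3. ATF2, which pairs with JUN, fell by 0.29 in DU145 and by 0.74 in PC3. BATF2 rose by 1.35 in PC3 from 0.777 to 1.98 CPM, and its call was lost under 5 settings.

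The corepressor genes NAB1 and NAB2 were tested with EGR2 and EGR3 as the EGR list. NAB2 fell by 0.68 in DU145 (47.6 to 29.8 CPM) and by 0.27 in PC3 (adjusted p = 0.0342), the PC3 call being lost under 7 settings. NAB1 fell by 0.36 in PC3. EGR3 had no count in the 3 parental DU145 libraries and 19, 22 and 9 counts in the resistant ones. With parental DU145 set at 3 counts in all, a value chosen here, the difference would be 17-fold. In PC3 EGR3 had 0, 4 and 0 counts in parental and 15, 14 and 0 in resistant libraries, so a 0 also occurred beside such counts within a group. The DU145 call of EGR3 (adjusted p = 0.0257) was lost when any parental DU145 library or either of the first 2 resistant ones was left out. The adjusted p was then 0.0551 to 0.072. EGR2 did not pass in either line (-1.21 and 1.07). Of the list, 1 gene rose (EGR3), 1 fell and 2 did not pass in DU145, and 0, 2 and 2 in PC3. The 2 called genes were 1 in each line in some of these settings.

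Upstream of the family, the serum response factor list had 2 genes higher, 2 lower and 2 not passing in DU145, and 4, 0 and 2 in PC3. The 4 called in PC3 were 2 without any 1 parental library or without the first resistant library of PC3, and in 5 of the other settings. The 4 called in DU145 were 2 without the third resistant DU145 library. SRF, the factor that binds CArG boxes, rose by 0.57 in DU145, and ELK3, one of its ternary complex partners, rose by 0.54 in DU145 and 0.42 in PC3. ELK1, another such partner, fell by 0.24 in DU145 (adjusted p = 0.0533 without the third resistant library) and rose by 0.18 in PC3 at adjusted p = 0.0498, a PC3 call lost under 12 settings. MRTFA, a coactivator of SRF, rose by 0.25 in PC3. Of 18 MAP kinase and turnover genes, 3 rose, 8 fell and 7 did not pass in DU145 (median -0.20), and 6, 4 and 8 in PC3 (median 0.05). MAPK8, which encodes the Jun kinase JNK1, rose by 0.54 and 0.48. MAPK10, the JNK3 gene, fell by 5.11 in DU145 from 1.29 to 0.0356 CPM. ITCH, a ubiquitin ligase that marks Jun proteins, rose by 0.74 in DU145, and FBXW7, which targets phosphorylated JUN, fell by 0.44 in DU145, a call lost under 4 settings, and rose by 0.63 in PC3. MAPK3, which encodes ERK1, fell by 0.57 in PC3. The MAPK10 call was lost under 2 settings.

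Of 36 other immediate-early genes, 17 rose, 6 fell and 13 did not pass in DU145 (median 0.45), and 18, 9 and 9 in PC3 (median 0.47). DUSP6, a phosphatase that inactivates ERK, rose by 2.25 in DU145 (7.07 to 33.8 CPM) and fell by 1.75 in PC3 (258 to 76.8 CPM). PTGS2, the inducible cyclooxygenase, rose by 2.51 in DU145 (0.330 to 1.86 CPM, a call lost under 3 settings) and fell by 7.83 in PC3 (66.3 to 0.290 CPM). SIK1, a salt-inducible kinase, rose by 2.22 in DU145 and by 1.21 in PC3. CCN1, a secreted matrix protein, fell by 1.01 in DU145 (324 to 161 CPM) and rose by 2.79 in PC3 (41.8 to 290.1 CPM). In the third resistant DU145 library, where FOS and EGR1 were highest, 27.8% of these 36 genes were at their highest within the group, and 34% of all genes.

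**Figure D4:**
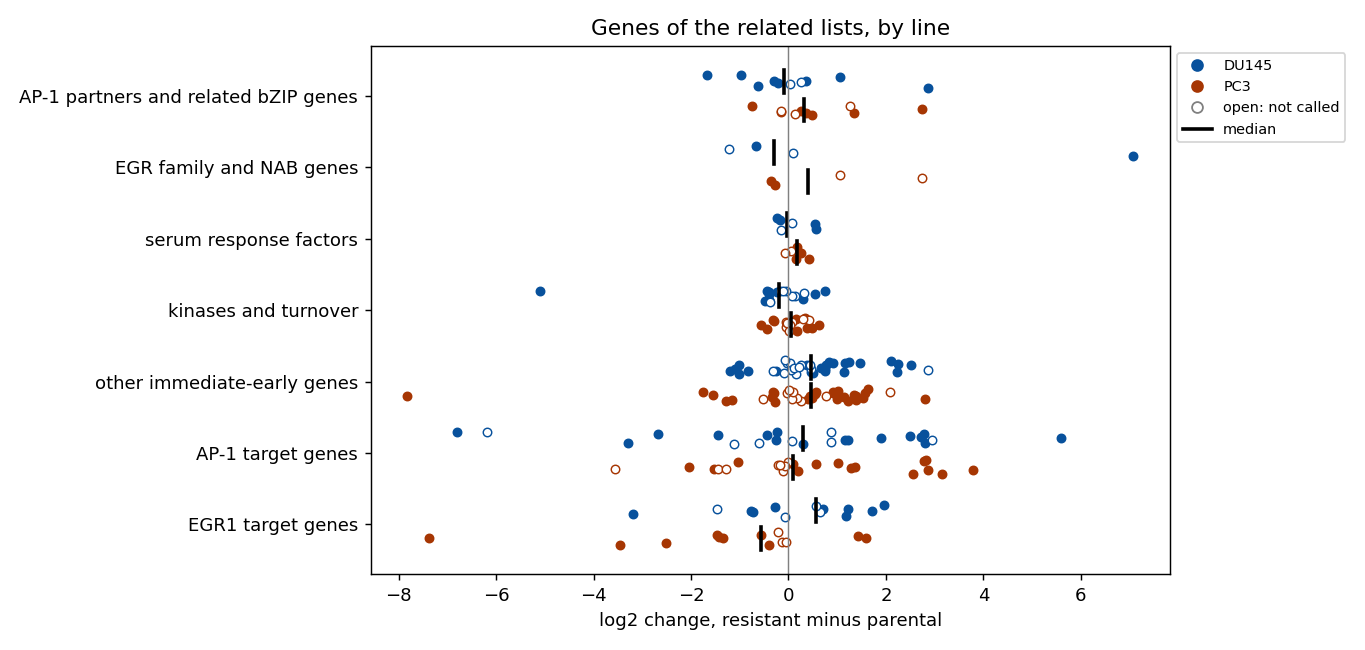
Fitted log2 change from parental to resistant (horizontal axis) of each tested gene of 7 related lists in DU145 and in PC3, filled where called, with the list median as a bar. The point near 7 in the EGR list is EGR3, which had no count in parental DU145, so that its fitted value is no size of effect, and PTGS2 lies at -7.83 in PC3.

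Of 23 AP-1 target genes tested, 9 rose, 7 fell and 7 did not pass in DU145 (median 0.31). In PC3 12 rose, 3 fell and 8 did not pass (median 0.09, or 0.14 without 1 gene at or under 3 counts in both groups). The share called was 69.6% in DU145 and 65.2% in PC3, against 39.6% and 44% of all genes. MMP1, the interstitial collagenase, rose by 5.59 in DU145 (0.147 to 7.09 CPM) and fell by 1.52 in PC3 (9.01 to 3.13 CPM), the PC3 call being lost under 6 settings. The cytokine gene IL6 fell by 3.30 in DU145 (13.3 to 1.35 CPM) and rose by 1.28 in PC3 (0.410 to 0.993 CPM), a PC3 call lost under 7 settings. CSF2, which encodes GM-CSF, fell by 6.80 in DU145 (7.56 to 0.0655 CPM) and rose by 3.16 in PC3 (1.15 to 10.3 CPM). SERPINB2 rose by 3.80 in PC3. CD44, the hyaluronan receptor, rose by 2.71 in DU145 (269 to 1766 CPM) and by 2.86 in PC3 (328 to 2383 CPM). Of 13 EGR1 target genes, 5 rose, 4 fell and 4 did not pass in DU145 (median 0.57), and 2, 8 and 3 in PC3 (median -0.57), where EGR1 was at or under 39 counts in every library. ICAM1 rose by 1.96 in DU145 (110 to 428 CPM) and fell by 2.52 in PC3 (653 to 114 CPM). PDGFB, a growth factor gene, rose by 1.71 in DU145 and fell by 3.46 in PC3, and FN1, which encodes fibronectin, fell by 3.19 in DU145 (284.8 to 31.2 CPM) and by 1.34 in PC3 (1420 to 562.5 CPM). IGF2 rose by 1.59 in PC3 (1.77 to 5.34 CPM), a call lost under 3 settings.

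The genes most like a member were named by Pearson's r of log2(CPM + 1) over the 12 libraries among 12201 genes with a mean of at least 5 CPM. The libraries form 4 groups, so r mostly follows the group means and is a description. LSR (r = 0.998), RBMS2 and ARL10 were nearest to FOSL2, with LSR at 42.3, 65.9, 1.53 and 0.414 CPM in parental and resistant DU145 and PC3. CRNDE (r = 0.993), TKTL1 and BPNT2 were nearest to EGR1, with CRNDE at 9.65 and 56.6 CPM in DU145 and under 1 CPM in PC3. PCNA (r = 0.994), HNRNPH3 and SMS were nearest to JUN, and PPP3CA (r = 0.991), PCYT2 and SLC22A31 to JUND. VDAC2P5 (r = 0.997), ATAD3A and PHF8 were nearest to FOSL1, and TMCO6 (r = 0.987), SH3PXD2B and PPP1R18 to JUNB. For FOS, a low gene, ASPSCR1 (r = 0.966), CLNS1A and NEK6 were nearest.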

How the data were processed

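RNA was sequenced in 12 libraries, 3 per group, as oligo(dT)-selected, dUTP strand-marked, paired-end libraries, per the labels' protocols. The deposited tables hold, per gene, whole-number counts and FPKM made by the authors. Per the submitters' processing notes the tools were StringTie 1.3.4d, HISAT2 2.0.4, cutadapt 1.9, edgeR and DESeq2, with no roles named, and the build hg18, while the deposited coordinates match GRCh38: 37308 of 37385 gene identifiers shared with GENCODE 29 overlap its position. Which program counted, with or without strand, and on which annotation is not given in the sources used here. The deposited FPKM equal counts divided by a gene length and the library total; for JUN that length, 3624 bases, exceeds its span of 3257 bases in the files, which bears on its FPKM share. CPM were computed here from the counts with TMM.

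Counts were fitted with edgeR 4.0.16 in R 4.3.3 (filterByExpr, TMM, quasi-likelihood, 1 mean for each of 4 groups, 8 residual degrees of freedom, two-sided, Benjamini-Hochberg over 24128 genes, called at an adjusted p under 0.05). In all, 5 contrasts were fitted. Alternatives were DESeq2 1.42.0, limma 3.58.1 on log2(FPKM + 1), log2(FPKM + 0.1) and log2(TPM + 1), other scaling and filters, a replicate block and leaving out each library. The scripts were tested on simulated data. Motifs were searched in RefSeq promoter windows. Named list genes are the up to 3 called genes per list and line with the largest change and a mean of at least 1 CPM in a group. The genes most like FOSB are not reported here. EGR3 falls outside that rule and was named after its values were seen. Members and lists were chosen with earlier results of these data known.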

Additional observations from a re-analysis of the deposited data

Results flagged for a closer look

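The change from parental to resistant cells was examined for a difference between the lines in the 8 members and in the 10 list genes named in both lines. It differed by edgeR's test in 5 and 8 of them, and that test was called for 42.1% of all genes. Of 36 other immediate-early genes 13 were called positive and 14 negative, and of 23 AP-1 target genes 10 positive and 7 negative. The 10 list genes had been named for a large called change in each line of these same data. Their 8 therefore cannot be set against the share of all genes. Among the members, the change in PC3 minus that in DU145 was 0.82 for FOSL1, -0.78 for FOSL2, 0.64 for JUN, -0.99 for JUNB and 0.95 for JUND on the log2 scale. Among the 10 list genes, it was 4.42 for ATF3, 9.96 for CSF2, -4.00 for DUSP6, 0.42 for ELK1, -4.48 for ICAM1, 0.40 for NAB2, -5.16 for PDGFB and -10.3 for PTGS2. ATF3 and CSF2 fell in DU145 and rose in PC3, and DUSP6, ICAM1, PDGFB and PTGS2 rose in DU145 and fell in PC3. The ELK1 call in PC3 was lost under 12 settings.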

How the results depend on the processing

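Over the members' values, 789 kept their direction and side of the threshold under an alternative, 39 lost the call, 14 gained it and 29 changed sign. For 39 results of list genes named by the rule, 825 values were kept and 33 lost. Over all 148 called results of list genes, named or not, 121 kept the call in every alternative tested, 27 lost it in at least 1 and none changed sign (this count was added after seeing the data). The number of members called ranged, leaving out 1 library at a time, from 4 to 6 in DU145, from 5 to 6 in PC3, and from 5 to 7 between the parental lines (8 with all libraries), the 5 without the second parental DU145 library, where FOSB was also lost (adjusted p = 0.0518). Low counts, at most 65 in a library, limit FOSB in DU145 and FOS and EGR1 in PC3. FOS in DU145 had 112 to 264 counts and FOSB in PC3 90 to 288, with a fitted spread shared by the 4 groups. Leaving out 1 library, FOSB in DU145 ranged from -0.22 to 0.62, EGR1 in PC3 from -1.15 to 2.46, FOS in PC3 from -0.12 to 7.54, the difference between the lines' changes from -0.55 to 7.12 for FOS and from -3.51 to 0.10 for EGR1, and JUND between the sublines from -0.016 to 0.034. Other sign changes were FOSB in DU145 with log2(TPM + 1) (-0.012), EGR1 in PC3 with log2(FPKM + 0.1) (0.051) and TPM (0.023), the FOS difference between the lines with upper-quartile scaling (-0.016) and FPKM (-0.11), JUNB between the sublines with TPM (0.020), and JUND between the sublines with upper-quartile scaling (-0.080), library totals (-0.035), log2(FPKM + 1) (-0.033) and log2(FPKM + 0.1) (-0.035). None of these values passed the test in the fit reported. Counts in place of FPKM, which weight longer transcripts more, gave share changes in percentage points of 5.47 for FOSL2 in DU145, 0.13 for FOSB, 9.36 for FOSL1 and -9.49 for FOSL2 in PC3, 13.2 for JUN, 12.5 for JUNB and -25.7 for JUND in DU145, and 20.4 for JUN in PC3. With TPM, 36.1% of called genes in DU145 were higher against 47.7% with counts, and 62.8% against 52.5% for the difference between the lines, whose median over all genes moved to 0.14. Upper-quartile scaling moved that median between the sublines to -0.12. Same-numbered libraries did not pair (correlations of their deviations from -0.11 to 0.08). A replicate block gave 9155 called genes in DU145 and 10219 in PC3 against 9554 and 10615, with 5 members called in each, and changed 3 of 40 member calls, all between lines (FOS in both states and JUN between parental lines). The cause of the other shifts was not tested.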
